A study of Mus musculus with 17 samples.

Results

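The set described here holds 9 genes, *Spp1*, *Igf1*, *Gpnmb*, *Clec7a*, *Itgax*, *Lgals3*, *Cd68*, *Cd63* and *Fabp5*, named as marking the activated, amoeboid microglia that gather in axon tracts of the newborn brain. They were taken from the deposited table of 55359 genes by their Ensembl identifiers, and all 9 were found. RNA was sequenced from 9 forebrains and 8 testes of male mice that were 1 day old. The design asked how the osteocalcin that reaches an embryo from its mother bears on the offspring. WT pups (3 forebrains, 2 testes) were born from WT mothers, whereas *Ocn*+/- pups (3 forebrains, 3 testes) and *Ocn*-/- pups (3 forebrains, 3 testes) were all born from *Ocn*-/- mothers. The mutant allele lacks the osteocalcin genes in every cell (strain *Ocn*_GK, on a 129/SvEv background). Pup genotype, maternal genotype and litter therefore cannot be told apart in a comparison with WT, while *Ocn*+/- and *Ocn*-/- pups share their mothers' genotype. The sample labels call the brain tissue hippocampus, and the study's text calls it forebrain with the hippocampus included.

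Microglia are the resident macrophages of the brain. Around birth a part of them withdraw their processes, accumulate in the developing white matter and switch on genes for secreted growth and matrix proteins, lysosomal proteins and lipid handling, and a similar programme returns in ageing, demyelination and neurodegeneration. The set holds 2 secreted factors (*Spp1*, which encodes osteopontin, and *Igf1*, which encodes insulin-like growth factor 1), 2 surface receptors (*Clec7a*, the pattern receptor Dectin-1, and *Itgax*, the integrin chain CD11c), 4 proteins of lysosomes and vesicles (*Gpnmb*, *Cd68*, *Cd63* and the glycan-binding *Lgals3*) and the lipid carrier *Fabp5*. None of the 9 is made by microglia alone, and *Igf1* is also made by neurons, including those of the olfactory bulb.

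The set was selected on earlier results of these data, and which of the measured values guided it is not recorded. Differences between mutant and WT forebrains, and between these and the same difference in testes, are therefore given for the 9 genes as a description without a test. The other gene lists below were also drawn up with earlier results of these data known. Their calls and p-values are therefore no independent tests. Levels are CPM, the counts of a library scaled to its TMM-normalized size, with each tissue normalized alone. A gene is said to be called where edgeR's quasi-likelihood test gave a Benjamini-Hochberg adjusted p under 0.05 over all genes tested in that tissue. A filter on low counts let 7 of the 9 genes into the test in each tissue, and *Clec7a* and *Itgax* did not pass it in either.

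The stretches of 250 bases before the start sites of the 3 genes that were higher in every mutant forebrain are shown because microglial genes are commonly read through sites of PU.1 and AP-1. They are RefSeq sequences of build GRCm38.p6, an earlier build than the GRCm39 of the counts, from chr5:104434861-104435110 for *Spp1* (1 of 2 start sites listed), chr10:87860861-87861110 for *Igf1* and chr6:49036268-49036517 for *Gpnmb*, all on the + strand. Capitals mark the only matches to the 3 motifs searched on both strands, GAGGAAGT for PU.1, TGANTCA for AP-1 and CACGTG, the E-box bound by the MiT factors that regulate lysosomal genes.
Spp1: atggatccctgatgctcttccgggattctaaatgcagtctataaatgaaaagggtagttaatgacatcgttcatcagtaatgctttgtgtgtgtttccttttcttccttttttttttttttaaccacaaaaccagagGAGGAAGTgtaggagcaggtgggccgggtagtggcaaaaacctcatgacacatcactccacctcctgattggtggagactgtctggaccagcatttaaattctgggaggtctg
Igf1: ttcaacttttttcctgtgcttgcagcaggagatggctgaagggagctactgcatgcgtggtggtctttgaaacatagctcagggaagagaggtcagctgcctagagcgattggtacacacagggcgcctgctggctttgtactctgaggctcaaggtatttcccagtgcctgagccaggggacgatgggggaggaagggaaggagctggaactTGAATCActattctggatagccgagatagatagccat
Gpnmb: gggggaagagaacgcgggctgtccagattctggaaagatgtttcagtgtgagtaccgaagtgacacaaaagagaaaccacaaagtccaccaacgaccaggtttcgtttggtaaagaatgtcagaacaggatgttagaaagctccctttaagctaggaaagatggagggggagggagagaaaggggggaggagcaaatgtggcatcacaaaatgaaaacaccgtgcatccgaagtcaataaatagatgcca
The PU.1 letters lay 113 to 106 bases before the start of *Spp1*, and the AP-1 letters 37 to 31 bases before that of *Igf1*. Among the 8 genes of the set with a window in the table, the PU.1 letters were found in *Spp1* alone, and 2.44% of all 32851 windows held them. The AP-1 letters were found in 3 genes (*Igf1*, *Itgax* and, with 2 matches, *Cd68*) and in 6.75% of all windows. The E-box was found in 0 of the 8 and in 6.02% of all windows, so the *Gpnmb* window carries none of the searched letters.

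Total counts ran from 6518151 to 14621584 in forebrain and from 7302401 to 8289015 in testes. The forebrain of WT 3 had the lowest total, the highest share of mitochondrial counts (5.34% against 2.40% to 3.18% in the other forebrains) and the lowest mean correlation with the other forebrains (0.9658 against 0.9768 to 0.9803). Osteocalcin itself could not check the genotypes, since *Bglap* had 0 to 5 counts per library and *Bglap2* had 0 in every library, which allows up to 3 counts. Microglia were present in forebrain by their defining markers: the 11 tested homeostatic markers, including *P2ry12* at 9.59 ± 1.11 CPM in WT (SD, n = 3), summed to between 115.1 and 155.0 CPM per forebrain. *Clec7a* and *Itgax*, the receptors that define the activated state most narrowly, were near 0, so the label of the set rests in these libraries on its other 7 genes. Per kilobase of the canonical transcript, levels in WT forebrain fell in the order *Fabp5* (205 ± 32.3 CPM per kb, SD, n = 3), *Cd63* (26.3 ± 3.43), *Spp1* (4.52 ± 0.439), *Cd68* (3.21 ± 0.826), *Igf1* (2.45 ± 0.180), *Lgals3* (1.09 ± 0.383), *Gpnmb* (0.129 ± 0.112), *Itgax* (0.0579 ± 0.0663) and *Clec7a* (0.0360 ± 0.0623). *Spp1* and *Cd68* overlapped between libraries, *Cd68* and *Igf1* lay less than the SD of *Cd68* apart, and the last 3 genes were not separated beyond their spread.

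Of the 9 genes, *Spp1*, *Igf1* and *Gpnmb* were higher in all 6 mutant forebrains than in all 3 WT forebrains, and the other 6 overlapped. With both mutant genotypes averaged, 3 of the 7 tested genes were called against WT, all higher, where 8.68% of all 16076 genes tested were called, 3.29% higher and 5.39% lower. Libraries of WT and mutants did not overlap for 6.85% of all genes with the mutants higher and for 8.57% with the mutants lower. In *Ocn*+/- alone 2 were called, *Spp1* and *Igf1*, both higher, where 3.89% of all genes were (1.21% higher, 2.68% lower), and in *Ocn*-/- alone these 2 and *Gpnmb*, all higher, where 4.85% were (1.8% higher, 3.05% lower). With a library left out the count in *Ocn*-/- ran from 1 to 3. These counts are part of how the set may have come about, and nothing is read from them. The median log2 fold change of the 7 was 0.43, and that of all genes was 0.007. In bulk tissue more cells of a type and more RNA per cell cannot be told apart.

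**Figure D1:**
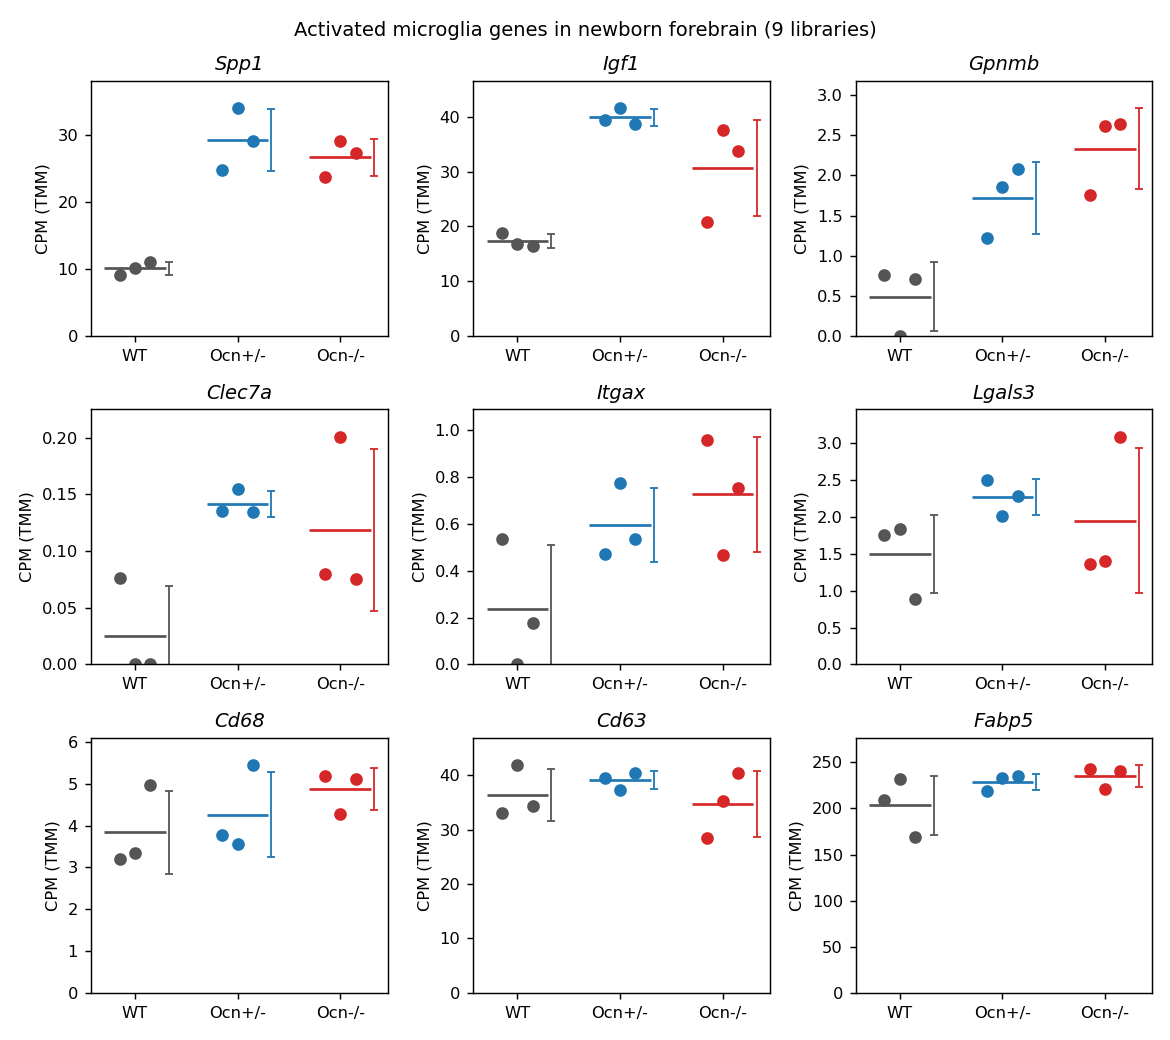
Levels of the 9 genes in forebrain (CPM after TMM normalization, linear axes from 0), with a point per library, a line at the genotype mean and a bar of 1 SD beside it (n = 3 each). The WT points of *Spp1* lie between 9.07 and 11.03 CPM and the mutant points between 23.6 and 33.9 CPM, *Igf1* of *Ocn*-/- 1 lay close to WT at 20.8, and the genes other than *Spp1*, *Igf1* and *Gpnmb* overlap between WT and mutants.

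*Spp1*, whose product osteopontin is a secreted ligand of integrins and CD44 (GRCm39 chromosome 5, 104582165 to 104589235, + strand), stood at 9.07, 10.14 and 11.03 CPM in the WT forebrains. It stood at 24.75, 33.94 and 29.03 CPM in *Ocn*+/- and at 23.64, 29.00 and 27.32 CPM in *Ocn*-/- forebrains. Even the lowest mutant forebrain lay above every WT forebrain by more than the whole range of WT, and the mutant genotypes overlapped. The log2 fold change was 1.55 (SE 0.150) in *Ocn*+/-, 1.42 (SE 0.151) in *Ocn*-/- and 1.49 (SE 0.137) for both against WT, a 2.80-fold difference. Without WT 3 the last value was 1.55. The counts behind it ran from 62 to 438 per forebrain.

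*Igf1*, a growth factor that acts on neurons, oligodendrocyte precursors and other cells through the receptor IGF1R (chromosome 10, 87693642 to 87772904, + strand), stood at 18.76, 16.82 and 16.37 CPM in WT forebrains. It was tightly grouped in *Ocn*+/- at 39.43, 41.54 and 38.64 CPM and spread in *Ocn*-/- at 20.84, 37.51 and 33.72 CPM. *Ocn*-/- 1 was 1.20-fold over the WT mean, the other mutants lay far above it, and the groups did not overlap. The log2 fold change was 1.19 (SE 0.170) in *Ocn*+/-, 0.82 (SE 0.172) in *Ocn*-/- and 1.01 (SE 0.154) for both, a 2.01-fold difference that was 0.97 on the log2 scale without WT 3.

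Markers of the olfactory bulb moved with these levels. *Cdhr1*, *Tbx21* and *Eomes*, which its mitral and tufted neurons make, summed to 23.11, 25.92 and 26.86 CPM in WT, to 108.9, 92.22 and 117.4 CPM in *Ocn*+/- and to 19.65, 71.07 and 74.14 CPM in *Ocn*-/- forebrains. The sums of *Ocn*+/- forebrains were the highest and that of *Ocn*-/- 1 was the lowest of all 9. *Eomes* made up much of the low sums, with 21.88 CPM in WT 3 and 11.50 CPM in *Ocn*-/- 1. By *Cdhr1* alone *Ocn*-/- 1 (8.15 CPM) lay within the WT forebrains (4.80 to 12.56 CPM). None of the 3 markers was called for both mutant genotypes against WT (edgeR adjusted p = 0.0795 for *Cdhr1*, 0.139 for *Tbx21* and 0.314 for *Eomes*), with a median log2 fold change of 1.76. At an unadjusted p under 0.05 there were 2 of the 3, and DESeq2 called 1. *Ocn*-/- 1, at 0.777 of the WT mean of this sum, had *Spp1* at 2.35-fold and *Igf1* at 1.20-fold the WT mean. The part of olfactory bulb tissue in the *Igf1* and *Spp1* levels of the other 5 mutant forebrains was not tested.

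**Figure D2:**
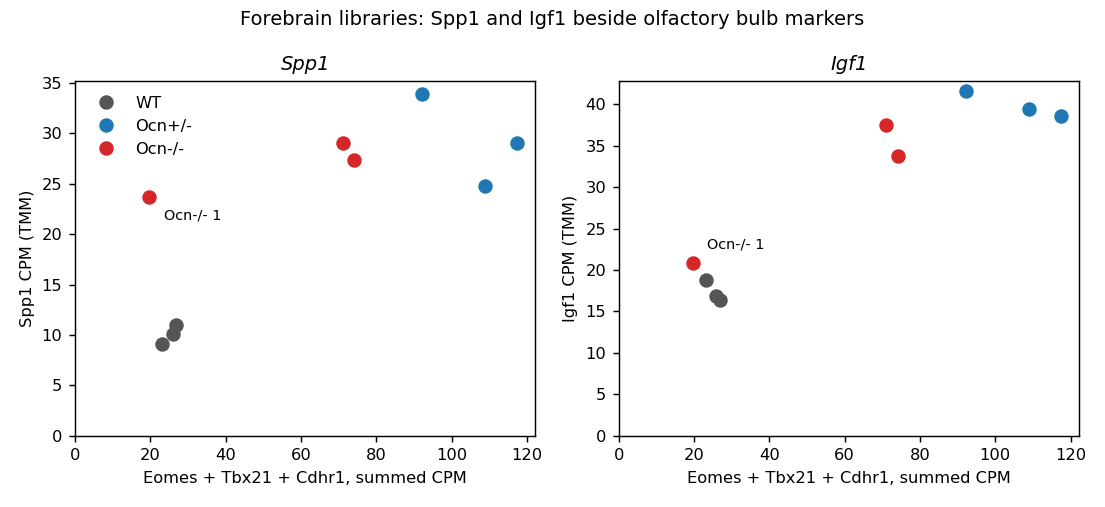
*Spp1* (left) and *Igf1* (right) in CPM against the summed CPM of *Eomes*, *Tbx21* and *Cdhr1*, with a point per forebrain coloured by genotype. *Ocn*-/- 1, at an olfactory sum of 19.65 CPM, lies with the 3 WT forebrains for *Igf1* (20.84 CPM) and above them for *Spp1* (23.64 CPM).

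*Gpnmb*, a lysosomal transmembrane glycoprotein that is a known target of the MiT factors (chromosome 6, 49013426 to 49047863, + strand), was low in every forebrain. Its counts were 10, 0 and 4 in WT, 18, 24 and 31 in *Ocn*+/- and 22, 39 and 35 in *Ocn*-/- forebrains. Every mutant forebrain had more than any WT forebrain, also as CPM (1.22 to 2.64 against 0 to 0.762). The log2 fold change was 1.76 (SE 0.565) in *Ocn*+/-, 2.20 (SE 0.553) in *Ocn*-/- and 1.98 (SE 0.515) for both. It rests on few counts, and the gene would not have passed the filter without the mutant libraries, where it is high. The value was 2.75 without WT 1, 1.42 without WT 2, the library at 0, and 2.17 without WT 3, and the gene was not called in the last 2 cases.

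The other lysosomal and vesicle genes did not separate WT from mutant forebrains. *Cd68*, the macrosialin of macrophage lysosomes (chromosome 11, 69555037 to 69557067, - strand), stood at 3.84 ± 0.989 CPM in WT (SD, n = 3) and at 4.57 ± 0.794 CPM in mutants (SD, n = 6), with a log2 fold change of 0.29 (SE 0.231). WT 3 had the highest *Cd68* of the WT forebrains at 4.98 CPM, above 3 of the mutants, and the log2 fold change was 0.48 without it. *Lgals3*, which encodes galectin-3 (chromosome 14, 47605208 to 47623624, + strand), stood at 1.75, 1.84 and 0.890 CPM in WT and ran from 1.36 to 3.09 CPM in mutants (log2 fold change 0.43, SE 0.353). *Cd63*, a tetraspanin of late endosomes and exosomes (chromosome 10, 128731528 to 128748709, + strand), stood at 36.4 ± 4.75 CPM in WT and 36.9 ± 4.61 CPM in mutants, a log2 fold change of 0.02 (95% interval -0.22 to 0.25). All 3 genes overlapped between WT and mutants.

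*Fabp5*, a cytosolic fatty acid carrier (chromosome 3, 10077602 to 10081674, + strand), was the most abundant of the set in forebrain, where immature neurons and glia also make it. It stood at 208.9, 232.3 and 169.0 CPM in WT and ran from 219.0 to 242.9 CPM in mutants, with a log2 fold change of 0.19 (SE 0.081), or 0.08 when WT 3, the lowest library, was left out. *Fabp5* and *Cd63* are uncertain, since 21.0% and 29.0% of their 50-base stretches also occur in other genes. The *Fabp5* look-alike *Gm6166* had 87.8 to 1147.1 counts per library, and the sum of the pair was 271.6 ± 28.6 CPM in WT and 306.0 ± 9.01 CPM in mutant forebrains, a ratio of 1.13.

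The 2 receptors lay below the filter. *Itgax* (chromosome 7, 127728668 to 127749829, + strand) had, rounded, 7, 0 and 1 counts in WT, 7, 10 and 8 in *Ocn*+/- and 12, 7 and 10 in *Ocn*-/- forebrains, 8 in all in 3 WT and 54 in 6 mutant libraries. WT 1, the deepest WT library, had as many counts as the lowest mutants. *Clec7a* (chromosome 6, 129438554 to 129449742, - strand) had 1, 0 and 0 counts in WT, 2 in each *Ocn*+/- and 1, 3 and 1 in *Ocn*-/- forebrains. At this depth no difference of *Clec7a* could be detected, and a count of 0 allows up to 3.

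Between the mutant genotypes, whose mothers were alike, 0 of the 7 tested genes were called in forebrain by edgeR, where 0.00622% of all genes were, and 0 by DESeq2. At an unadjusted p under 0.05 there was 1, *Igf1*, which was lower in *Ocn*-/- than in *Ocn*+/- forebrains by a log2 fold change of -0.37 (95% interval -0.71 to -0.04, edgeR adjusted p = 0.999) and did not overlap between them, as 7.77% of all genes did not. For *Spp1* the difference was -0.13 (95% interval -0.41 to 0.15) and for *Gpnmb* 0.44 (95% interval -0.47 to 1.36), so a 2-fold difference of *Gpnmb* lies within its interval and one of *Spp1* does not.

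The 11 tested homeostatic markers give a reference against which the set can be read within each library. It is not a measure of microglial RNA alone, since the same list summed to between 174.6 and 268.0 CPM in testes. Nor did it move evenly in forebrain, where 3 of the 11 were called higher in mutants and 3 had a log2 fold change below 0. Their mean log2 CPM lay between 2.39 and 2.62 in WT forebrains, 2.78 and 2.91 in *Ocn*+/- forebrains and 2.73 and 3.08 in *Ocn*-/- forebrains, higher in every mutant. Relative to this mean, *Spp1* stood on average 0.82 above it in WT and 1.90 above it in mutants on the log2 scale, a rise of 1.09, and WT (0.59 to 1.10) did not overlap with mutants (1.70 to 2.31). *Gpnmb* stood at -3.51 in WT and -1.81 in mutants. *Igf1* stood at 1.59 and 2.21, and its lowest mutant, at 1.66, touched the highest WT forebrain. The differences of *Lgals3* (0.09), *Cd68* (-0.12), *Fabp5* (-0.17) and *Cd63* (-0.35) were small or below 0, so that relative to homeostatic markers the set did not move as a block.

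**Figure D3:**
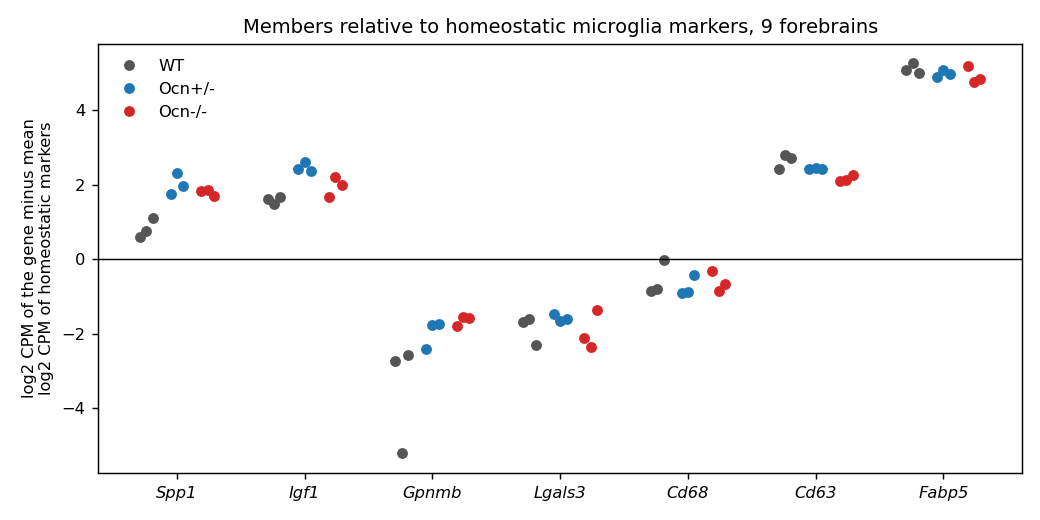
Log2 CPM of each of the 7 tested genes minus the mean log2 CPM of 11 homeostatic microglia markers in the same forebrain, with a point per library coloured by genotype. *Spp1* separates WT (0.59 to 1.10) from mutants (1.70 to 2.31), and *Lgals3*, *Cd68* and *Fabp5* overlap.

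The Pearson correlation of a gene's log2 CPM with the mean of the other 6 was 0.84 for *Spp1*, 0.84 for *Igf1*, 0.61 for *Lgals3*, 0.55 for *Gpnmb*, 0.52 for *Fabp5*, 0.22 for *Cd63* and 0.20 for *Cd68*, as a description over 9 libraries that share depth and genotype. Without WT 3 the value of *Cd68* was 0.58, that of *Lgals3* 0.44, that of *Fabp5* 0.38 and that of *Igf1* 0.72. These depend in part on that library. *Spp1* then stood at 0.80, *Gpnmb* at 0.54 and *Cd63* at 0.18. Among 15078 genes, those closest to the mean of the 7 included *Nme1* (0.978), *Ets1* (0.977), *Gars1* (0.970) and *Eif3b* (0.965), and those closest to *Spp1* alone were *Lgi2* (0.967), *Ppp1r12b* (0.966), *Cpt1a* (0.957), *Efna3* (0.956) and *Sptb* (0.953). The median correlation of 10 homeostatic markers was 0.547 with the mean and 0.494 with *Spp1*. Without WT 3, *Ets1* was again among the 5 genes closest to the mean and *Lgi2* among those closest to *Spp1*.

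Of 29 further genes ascribed to the activated programme, 23 were tested in forebrain, and 2 were called higher and 0 lower in mutants, where 8.68% of all genes were called, with a median log2 fold change of 0.07. The chemokine *Ccl3* had 0 to 2 counts in WT and 6 to 18 in mutant forebrains (log2 fold change 3.53, SE 0.806, edgeR adjusted p = 0.0115), and it too passed the filter only through the mutants. *Csf1*, the growth factor that sustains microglia, rose from 10.3 ± 1.53 CPM in WT (SD, n = 3) to 15 ± 1.47 CPM in mutants (SD, n = 6; edgeR adjusted p = 0.0268). The receptor pair of the programme did not pass the test, *Trem2* at a log2 value of 0.45 (edgeR adjusted p = 0.445) and *Tyrobp* at 0.42 (0.357), nor did *Apoe* at 0.28 (0.162). The count was 0 without WT 1 and without WT 3, so it depends on single WT libraries.

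Of the homeostatic list, 11 of 12 genes were tested in forebrain, and 3 were called higher and 0 lower, where 3.29% of all genes were called higher and 5.39% lower, with a median log2 fold change of 0.20. These were the purine receptor *P2ry13* (a fold of 2.83, edgeR adjusted p = 0.00977), the lipid receptor *Gpr34* (2.14, 0.022) and the fractalkine receptor *Cx3cr1* (1.83, 0.00217). *Cx3cr1* rose from 9.86 ± 3.15 to 18.7 ± 1.33 CPM, whereas *P2ry12* had a fold of 1.22 (edgeR adjusted p = 0.291), *Tmem119* of 0.913 (0.793) and *Csf1r* of 1.01 (0.961). The list summed to between 115.1 and 128.3 CPM in WT forebrains, 138.4 and 149.7 CPM in *Ocn*+/- forebrains and 127.9 and 155.0 CPM in *Ocn*-/- forebrains, so WT and mutants overlapped. Macrophage markers in general had 1 of 9 tested called, *Fcer1g* (log2 fold change 1.04, edgeR adjusted p = 0.0292), with a median of -0.06. Border macrophage markers had 0 of 7 called higher and 1 lower, *F13a1* (-0.74, edgeR adjusted p = 0.0218), and of 14 markers of neutrophils and monocytes 0 passed the filter. The part of microglial and macrophage numbers in the *Spp1*, *Igf1* and *Gpnmb* levels was not tested.

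Of 7 osteopontin receptors tested in forebrain, 0 were called higher and 1 lower, the integrin chain *Itgb1* (log2 fold change -0.27, edgeR adjusted p = 0.0414), and *Cd44* stood at 10.9 ± 2.28 CPM in WT (SD, n = 3) and 11.1 ± 1.08 CPM in mutants (SD, n = 6). Of 8 tested genes of the IGF1 receptor, its adaptors and binding proteins, 0 were called higher and 2 lower with both mutant genotypes averaged, while in *Ocn*+/- alone 2 were lower and 1 was higher (2.68% and 1.21% of all genes were), *Igfbp5* (log2 fold change 0.48, edgeR adjusted p = 0.0462), at 274.3 ± 20.1 CPM (SD, n = 3) against 196.8 ± 8.28 CPM in WT (SD, n = 3). *Igf1r* fell from 138.2 ± 29.6 to 99.0 ± 8.31 CPM (log2 fold change -0.47, edgeR adjusted p = 0.0138) and *Igfbp3*, a binding protein that holds IGF1 in the extracellular space, from 44.1 ± 3.49 to 29.4 ± 1.42 CPM (-0.58, edgeR adjusted p = 0.000831). Of 6 tested partners of Dectin-1 and CD11c 0 were called, with 4 higher, 2 lower and a median log2 fold change of 0.36. Of 4 tested genes of the MiT factors and the FABP5 partner *Ppard* 0 were called, with 3 higher, 1 lower and a median of 0.26. Of 8 factors of microglial growth and identity, *Tgfbr1* was called, lower (-0.41, edgeR adjusted p = 0.0151).

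Markers of other cell types and of the region also differed in the same forebrains. The neuron list summed to between 7942 and 8416 CPM in WT and 7112 and 7686 CPM in mutants. The forebrain identity list summed to between 772.8 and 1074 CPM in WT and 515.6 and 682.5 CPM in mutants. In each of these lists 1 gene was called lower and 0 higher, and 2 genes had a log2 fold change above 0. Of 5 endothelial markers 3 were called lower, *Flt1* (log2 fold change -1.31, edgeR adjusted p = 0.000209), *Pecam1* (-0.57, 0.0173) and *Kdr* (-0.48, 0.00944), where 5.39% of all genes were. The other 2, *Cldn5* and *Cdh5*, were not called and had log2 fold changes above 0. The endothelial list summed to between 179.9 and 227.5 CPM in WT and 141.6 and 184.6 CPM in mutants, so WT and mutants overlapped. Of 5 tested erythroid markers 2 were called lower, against the same 5.39% of all genes, *Hba-a1* (-0.62, edgeR adjusted p = 0.00266) and *Hba-a2* (-0.59, 0.00959). By genotype 3 were called lower in *Ocn*+/- (2.68% of all genes were) and 0 in *Ocn*-/- (3.05% were). The erythroid list summed to between 522.4 and 719.4 CPM in WT, 355.8 and 407.4 CPM in *Ocn*+/- and 486.4 and 598.6 CPM in *Ocn*-/- forebrains, so *Ocn*-/- overlapped with WT. Their part in the levels of the set was not tested.

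In testes the 7 genes that passed the filter were tested, and called genes lay in both directions. Whether testis values guided the choice of the set is not recorded, so independence of these tests from that choice cannot be shown. For both mutant genotypes against WT, 3 of the 7 tested genes were called (9.94% of all 16361 genes tested were), with *Spp1* lower (5.43% of all genes) and *Gpnmb* and *Cd68* higher (4.51%), and their median log2 fold change was -0.30, that of all genes -0.004. *Gpnmb* entered this test only through the mutant libraries, where it is high, so its call is no support for the count. The same 3 genes did not overlap between WT and mutants, where 13.6% of all genes did not with the mutants lower and 12.5% with the mutants higher. In *Ocn*+/- against WT 4 were called, where 8.25% of all genes were (3.89% higher, 4.36% lower), and they were these 3 and *Igf1*, lower. In *Ocn*-/- against WT 1 was, *Spp1*, where 5.64% were (2.54% higher, 3.09% lower).

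**Figure D4:**
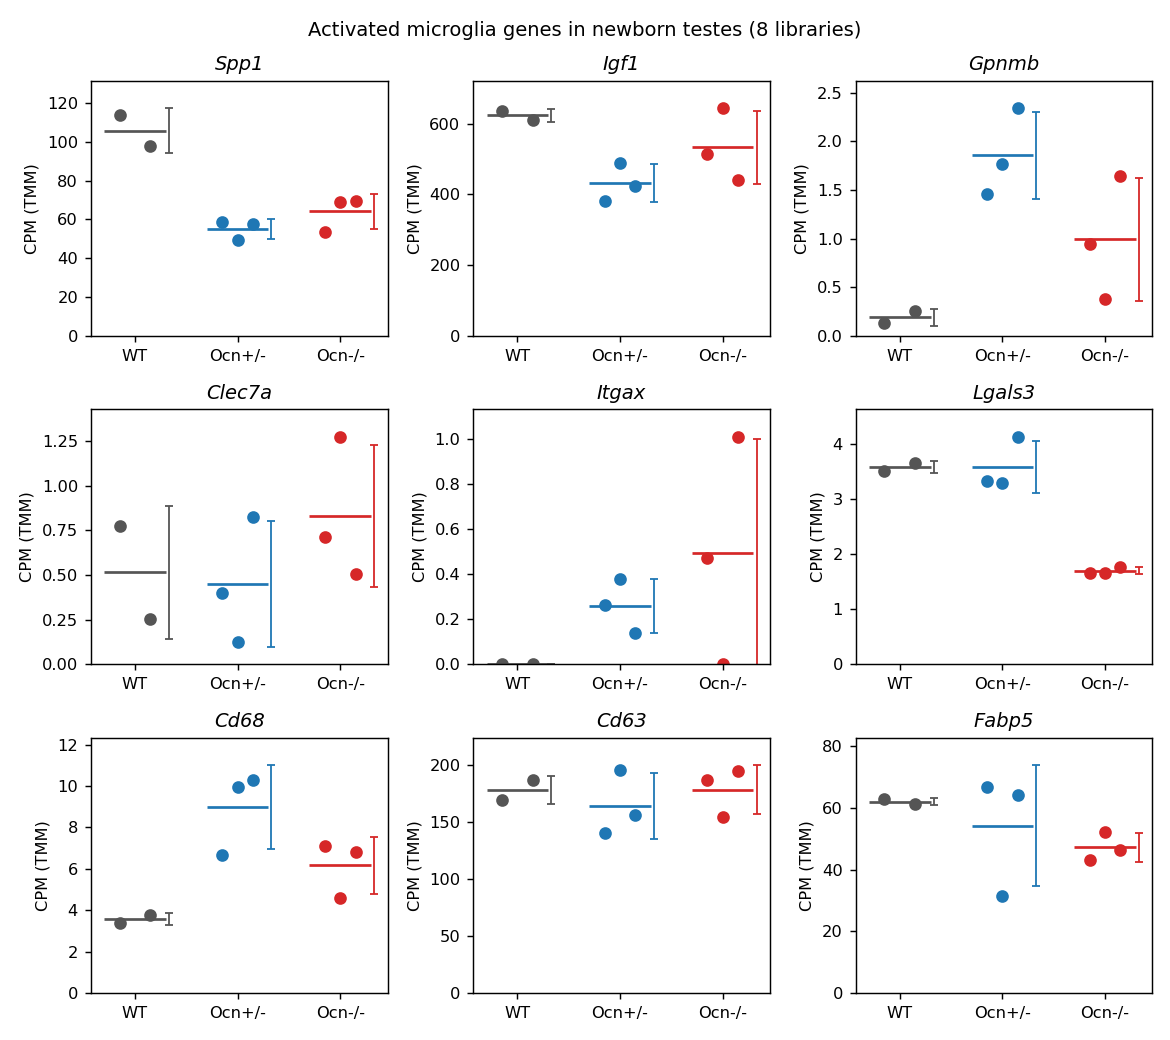
Levels of the 9 genes in testes (CPM after TMM normalization, linear axes from 0), with a point per library, a line at the genotype mean and a bar of 1 SD beside it (n = 2 WT, 3 *Ocn*+/- and 3 *Ocn*-/-). The WT points of *Spp1* lie at 97.7 and 113.8 CPM, above mutants at 49.3 to 69.5 CPM, and those of *Cd68* at 3.37 and 3.78 CPM, below mutants at 4.59 to 10.3 CPM.

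*Spp1* stood at 113.8 and 97.66 CPM in WT testes, at 58.71, 49.34 and 57.76 CPM in *Ocn*+/- and at 53.70, 69.07 and 69.50 CPM in *Ocn*-/- testes. Both WT testes were higher than each of the 6 mutant testes. The log2 fold change was -0.94 (SE 0.143, edgeR adjusted p = 0.00158) in *Ocn*+/-, -0.72 (SE 0.142, adjusted p = 0.00786) in *Ocn*-/- and -0.83 (SE 0.124, adjusted p = 0.000748) for both. With both mutant genotypes averaged it was called under each alternative tried, with an edgeR adjusted p of at most 0.0454. Where a WT testis was left out, here and below, the lone WT testis was assumed to vary like the mutant groups. The call in *Ocn*+/- was lost without WT 1 (edgeR adjusted p = 0.0508), and that in *Ocn*-/- without WT 1 (0.117) and without WT 2.

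*Igf1*, which in testes is made mainly by somatic cells, was abundant at 636.4 and 610.4 CPM in WT, 382.3, 488.8 and 425.2 CPM in *Ocn*+/- and 515.0, 643.3 and 440.3 CPM in *Ocn*-/- testes. *Ocn*-/- 2 was the highest of all 8, so WT and mutants overlapped. The log2 fold change was -0.53 in *Ocn*+/- (SE 0.150, edgeR adjusted p = 0.0409), -0.23 in *Ocn*-/- (SE 0.150, adjusted p = 0.389) and -0.38 for both (SE 0.132, adjusted p = 0.0796). The call in *Ocn*+/- was lost in 7 of 16 alternatives, with an edgeR adjusted p of up to 0.237: without WT 1, WT 2, *Ocn*-/- 1, *Ocn*+/- 1 or *Ocn*+/- 3, with library size alone and with the replicate number as a block.

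*Gpnmb* had 1 and 2 counts in WT testes, 11, 14 and 17 in *Ocn*+/- and 8, 3 and 13 in *Ocn*-/- testes. Each mutant testis had more than each WT testis, though *Ocn*-/- 2 came close. The log2 fold change of 2.73 for both mutant genotypes (SE 0.822, edgeR adjusted p = 0.0457) rests on a few counts, and the call was lost without either WT testis (adjusted p of up to 0.288 in edgeR), *Ocn*-/- 1, *Ocn*-/- 3, *Ocn*+/- 1 or *Ocn*+/- 3, and with the replicate number as a block (0.116). *Cd68* stood at 3.37 and 3.78 CPM in WT, at 6.64, 9.97 and 10.31 CPM in *Ocn*+/- and at 7.11, 4.59 and 6.82 CPM in *Ocn*-/- testes. Every mutant testis again lay above both WT testes. For *Cd68* the log2 value was 1.32 in *Ocn*+/- (SE 0.328, edgeR adjusted p = 0.0231), 0.79 in *Ocn*-/- (SE 0.329, adjusted p = 0.166) and 1.05 for both (SE 0.302, adjusted p = 0.0372). That last call was lost without WT 1, WT 2, *Ocn*-/- 1 or *Ocn*+/- 3, with an edgeR adjusted p of up to 0.261, and with the replicate number as a block (0.0889).

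*Lgals3* split by mutant genotype in testes. It stood at 3.50 and 3.66 CPM in WT and at 3.32, 3.28 and 4.12 CPM in *Ocn*+/-, but at 1.66, 1.66 and 1.77 CPM in *Ocn*-/- testes. The *Ocn*-/- testes lay below all others. Against *Ocn*+/- their log2 fold change was -1.07 (SE 0.360, edgeR adjusted p = 0.308), and against WT it was -1.07 (SE 0.393, edgeR adjusted p = 0.114), so neither passed the test over all genes. Between the mutant genotypes 0 of the 7 genes were called in testes by edgeR, as were 0% of all genes, and 0 by DESeq2. At an unadjusted p under 0.05 there were 2, *Lgals3* and *Igf1* (log2 fold change 0.30, edgeR adjusted p = 0.412), and 15.5% of all genes did not overlap between these genotypes.

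*Cd63* stood at 178.4 ± 12.2 CPM in WT testes (SD, n = 2) and 171.3 ± 24 CPM in mutants (SD, n = 6), with a log2 fold change of -0.06 (95% interval -0.34 to 0.22, edgeR adjusted p = 0.811). *Fabp5* stood at 62.97 and 61.19 CPM in WT and from 31.55 to 66.68 CPM in mutants (log2 fold change -0.30, edgeR adjusted p = 0.449), and with its look-alike *Gm6166* the ratio of mutant to WT was 0.778. *Itgax* had 0 counts in both WT testes, each of which allows up to 3, and 2, 3 and 1 in *Ocn*+/- and 4, 0 and 8 in *Ocn*-/- testes. *Clec7a* had 6 and 2 counts in WT and 1 to 10 in mutant testes.

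In testes 4.51% of all genes were called higher and 5.43% lower, against which the counts of the next lists stand. Of 25 tested further genes of the programme, 1 was called higher, *Trem2* (log2 fold change 2.30, edgeR adjusted p = 0.0292, from 2 to 6 counts in WT and 10 to 30 in mutants, through which alone it passed the filter), and 4 lower, led by *Lpl* (-1.05, 0.0235), *Ctsl* (-0.57, 0.00588) and *Gpx3* (-0.53, 0.0362). Without WT 1, and without WT 2, 0 of these calls were made. *Cx3cr1* was higher (1.25, edgeR adjusted p = 0.0123), and the homeostatic list summed to 220.3 and 256.8 CPM in WT and 174.6 to 268.0 CPM in mutants. Border macrophage markers fell in *F13a1* (-1.39, edgeR adjusted p = 0.0269) and *Ms4a7* (-1.35, 0.0456). Neutrophil and monocyte markers fell in 6 of 9 tested by edgeR and in 4 by DESeq2, the largest by edgeR being *Chil3* (-5.14, edgeR adjusted p = 0.00168), *Ngp* (-3.23, 0.000362) and *Ltf* (-3.08, 0.000724). *Chil3*, with 13 and 19 counts in WT and 0 to 1 in mutants, and *Ltf* would not have passed the filter without the WT testes, where they are high. The list summed to 100.4 and 106.1 CPM in WT against 24.1 to 55.0 CPM in mutants. Endothelial markers fell in 4 of 5, and their list summed to 544.6 and 551.2 CPM in WT against 322.0 to 387.2 CPM in mutants. Of 10 general macrophage markers tested, 0 were called by edgeR and 0 by DESeq2, with 1 at an unadjusted p under 0.05 in each, and their median log2 fold change was -0.33. The part of these cells in the testis levels of *Spp1*, *Gpnmb* and *Cd68* was not tested.

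Of 7 osteopontin receptors tested in testes, 4 were called lower, 0 higher and 3 not, and among the 4 were *Cd44*, from 37.1 ± 1.56 CPM in WT (SD, n = 2) to 18.3 ± 2.83 CPM in mutants (SD, n = 6; log2 fold change -1.03, edgeR adjusted p = 0.00119), *Itgb1* (-0.50, 0.0155) and *Itga9* (-0.49, 0.0188). Of the IGF1 list, *Igfbp5* was lower (-0.38, edgeR adjusted p = 0.0486) and 7 of 8 tested genes were not called.

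In the joint fit of all 17 libraries, the difference between mutants and WT was larger in forebrain than in testes by 2.33 on the log2 scale for *Spp1* (95% interval 1.95 to 2.71) and by 1.40 for *Igf1* (0.94 to 1.86). Those 2 of the 7 genes were called, where 2.96% of all 17800 genes were (1.71% larger in forebrain, 1.24% smaller), and this too is a description, since the forebrain difference is part of it. For *Gpnmb* the value was -0.74 (-2.91 to 1.43), for *Lgals3* 0.99 (-0.03 to 2.00), for *Cd68* -0.76 (-1.55 to 0.03), for *Cd63* 0.09 (-0.29 to 0.46) and for *Fabp5* 0.50 (-0.01 to 1.01). *Spp1* stood on opposite sides of WT in the tissues. *Gpnmb* was higher in mutants of both, but on few counts and after passing the filter only through the mutants, so nothing is read from that likeness.

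**Figure D5:**
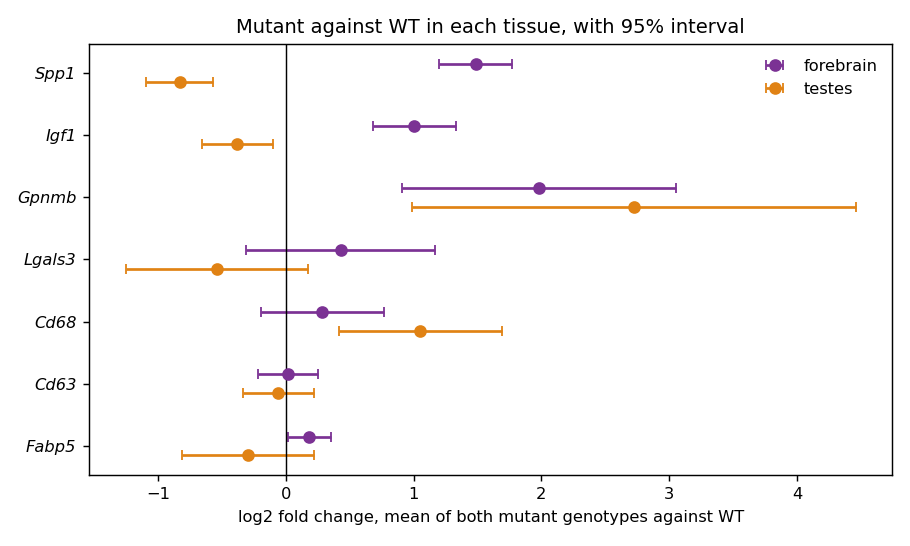
Log2 fold change of both mutant genotypes against WT for the 7 tested genes in forebrain and testes, with 95% intervals from edgeR. *Spp1* stands at 1.49 in forebrain and -0.83 in testes, and *Gpnmb* at 1.98 and 2.73.

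Averaged over genotypes, 5 of the 7 genes differed in level between the tissues, where 84.4% of all genes did (39.9% higher in forebrain, 44.5% lower). *Igf1* was lower in forebrain than in testes (log2 fold change -3.91, SE 0.104, edgeR adjusted p = 5.99e-18), as were *Cd63* (-1.92, 1.13e-16) and *Spp1* (-1.54, 6.9e-15). *Fabp5* was higher in forebrain (2.36, edgeR adjusted p = 1.42e-12) and so was *Gpnmb* (1.13, 0.0142), whose call was lost in 3 of 23 alternatives, with library size alone and without WT 1 of either tissue (edgeR adjusted p of up to 0.09). *Cd68* (-0.13, edgeR adjusted p = 0.489) and *Lgals3* (-0.23, 0.347) did not pass the test. The median of all genes was -0.09 in this contrast and -0.40 with library size alone, under which *Cd68* and *Lgals3* were called lower in forebrain.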

How the data were processed

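RNA of 17 libraries was prepared by the authors with the NEBNext Ultra RNA kit and sequenced. According to the submitters' processing notes, reads were trimmed with Trim Galore 0.6.6, aligned to GRCm39 with STAR 2.7.8a and counted with RSEM 1.3.3. The authors deposited RSEM's expected counts per gene, which divide reads that match several genes and need not be whole, without normalization. The strand setting of the counting is not given in the sources used here. Of 55359 identifiers, 54749 were named from GENCODE, and the other 610 held at most 0.102% of a library's counts.

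For testing, the values were rounded to whole counts, and each tissue had a fit of its own with R 4.3.3 and edgeR 4.0.16 (TMM, filterByExpr by genotype, robust quasi-likelihood, two-sided, no covariates), and both tissues together for differences between them. Total counts of 6518151 to 14621584 per library limit genes of few counts such as *Gpnmb*, and bounds for a count of 0 cover counting error only. Log2 CPM used a prior count of 2. The fits were tested on simulated data.

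The 9 genes and all lists were chosen with earlier results of these data known. Outside the 9, named genes are up to 3 higher and 3 lower called genes of a list with the largest change, defining markers where a result turns on a cell type, and the 5 genes most like the set. A few genes that this rule names are not reported here. The labels do not say which pups shared a litter or gave both tissues, and p-values measure the spread between the libraries. Sequences are RefSeq windows (GRCm38.p6). The results were recomputed with DESeq2 1.42.0, upper quartile normalization, library size alone, no filter, at least 10 counts in every library, the likelihood ratio test, only the genotypes compared, replicate number as a block, and each library left out.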

Additional observations from a re-analysis of the deposited data

Results flagged for a closer look

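The difference between mutants and WT was drawn out for *Spp1* and *Igf1* because it differed between the tissues in the joint fit. The forebrain values are among those that may have guided the choice of the genes, so these differences are a description and not a test. It was larger in forebrain than in testes by 2.33 on the log2 scale for *Spp1*, which was higher in 6 of 6 mutant forebrains and lower in 6 of 6 mutant testes than in every WT library of the tissue. For *Igf1* it was larger by 1.40, with 6 of 6 mutant forebrains above WT and 5 of 6 mutant testes below it. Over all alternatives the values ran from 2.22 to 2.44 for *Spp1* and from 1.31 to 1.51 for *Igf1*.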

How the results depend on the processing

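Among the recomputed log2 fold changes of the set, 1147 kept their direction and their side of the threshold, 42 lost a call, 9 gained one and 26 changed sign. In forebrain, 3 of the tested genes were called in *Ocn*-/- against WT and 1 to 3 when a library was left out (1 without WT 2, WT 3 or *Ocn*-/- 2). In testes, 4 were called in *Ocn*+/- against WT and 0 to 4 with a library left out, 1 in *Ocn*-/- and 0 to 1, and 3 in both mutant genotypes and 1 to 4. Replicate numbers do not pair the libraries (correlations of -0.037 to 0.146 in forebrain and -0.094 to 0.087 in testes), and with the replicate number as a block 1 gene was called in *Ocn*+/- and 1 in both mutant genotypes in testes. The calls of *Gpnmb* and *Cd68* in testes were lost under that block (adjusted p = 0.116 and 0.0889 for both mutant genotypes). The cause was not tested. Values that changed sign were those of *Cd63* in *Ocn*-/- forebrain (0.031 with library size alone, -0.189 to 0.057 with a library left out), in both mutant forebrains (-0.055 to 0.131), in *Ocn*-/- testes (-0.002 with upper quartile, -0.007 with at least 10 counts, -0.009 with the block, -0.065 to 0.095 with a library left out) and in both mutant testes (0.019 with library size alone, -0.12 to 0.031), *Lgals3* in *Ocn*+/- testes (0.011 with upper quartile, 0.074 with library size alone, 0.008 with only the genotypes compared, -0.116 to 0.069 with a library left out) and in *Ocn*-/- forebrain (-0.169 to 0.516), *Cd68* in *Ocn*+/- forebrain (-0.021 to 0.39), *Fabp5* in *Ocn*+/- testes (-0.371 to 0.091) and the tissue difference of *Gpnmb* (-1.305 to 0.01). In forebrain, with both mutant genotypes averaged, the log2 fold change ran from 1.41 to 1.57 for *Spp1* and from 0.92 to 1.11 for *Igf1* over 16 alternatives, and that of *Igf1* in *Ocn*-/- alone from 0.65 to 1.03 over 17, of which 3 lost the call (without WT 2, WT 3 or *Ocn*-/- 2). Depth limits *Gpnmb*, *Itgax* and *Clec7a*, and 2 WT testes limit every comparison there.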
